A study of Rattus norvegicus with 8 samples.

Results

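The NADPH oxidase subunits described here were 6 genes, matched by symbol to the gene names in the count files: Cybb, Cyba, Ncf1, Ncf4, Rac2 and Nox4. They were 6 of 32623 genes listed, and all 6 were among the 11682 genes whose base mean (the size-factor-scaled mean count over all libraries) reached 100, which entered the tests. An arteriovenous fistula (AVF) joins an artery to a vein, and the vein then dilates and thickens under arterial flow to give access for hemodialysis. In Sprague Dawley rats of both sexes the epigastric vein was joined to the femoral artery and wrapped with a bilayer nanofiber scaffold, which either carried β-aminopropionitrile (BAPN), an inhibitor of the collagen cross-linking enzyme lysyl oxidase, or was left unloaded (Vehicle). Bulk RNA of the AVF vein was sequenced 21 days after surgery in 4 BAPN rats (1 to 3 female, 4 male) and 4 Vehicle rats (1 and 2 female, 3 and 4 male). All 8 rats carried a fistula and a scaffold, so that no vein without a scaffold entered the comparison, which addressed how local lysyl oxidase inhibition changes gene expression in the fistula.

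NADPH oxidases move electrons from NADPH across a membrane to oxygen and so produce superoxide or hydrogen peroxide. The phagocyte oxidase of macrophages and neutrophils has a membrane core of gp91phox (Cybb) and p22phox (Cyba), and it is silent until cytosolic subunits, among them p47phox (Ncf1) and p40phox (Ncf4), and the small GTPase Rac2 join it. Nox4 is a relative of gp91phox that also pairs with p22phox, needs no cytosolic subunits, releases mainly hydrogen peroxide and is known in the vessel wall from smooth muscle cells, endothelial cells and fibroblasts, where TGF-β is a known inducer. In fibrosis, Nox4 has been linked to the activation of myofibroblasts.

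The transcript of Nox4 was lower in BAPN than in Vehicle veins by 1.7-fold, and it was lower in each BAPN rat than in each Vehicle rat. The 5 phagocyte oxidase subunits had means between 1.47 and 1.59 times higher in BAPN veins, but the rats of the groups overlapped for each of them and none of the 5 passed the threshold (edgeR false discovery rate, FDR, below 0.05 over all tested genes). Of the 6 members, 1 was therefore called lower and 0 were called higher, where 9.25% of all tested genes were called lower and 7.5% higher. At an unadjusted p below 0.05, 3 of the 5 phagocyte subunits (Ncf1, Ncf4 and Rac2) passed as higher, where 17.4% of all tested genes passed as higher and 18.4% as lower. DESeq2 called Rac2 higher in addition to Nox4 lower, against 12.3% of all genes called higher and 15.1% called lower by that tool. The median log2 fold change of all tested genes was 0.02.

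Total counts were 45039451 to 52241007 in BAPN and 19548203 to 22442050 in Vehicle libraries, so that the smallest BAPN library was 2.01 times the largest Vehicle library and depth and treatment could not be told apart in the raw counts. Expression is given as CPM, which is counts scaled to a common library size with TMM factors. With all libraries thinned to the smallest total, the log2 fold change was -0.78 for Nox4 (FDR 0.0187) and 0.55 to 0.66 for the 5 others. Vehicle 4 had the lowest summed macrophage marker level of all 8 rats and the lowest value of each phagocyte subunit, and the log2 fold change of each member is also given without it.

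The start regions of the genes for both catalytic subunits are printed because these related oxidases are the ones set against each other here. Each holds the 250 bases before and 50 bases after the annotated start from RefSeq (rat build GRCr8), 5′ to 3′ on the strand of the gene. Capitals mark matches to GAGGAA or its reverse complement, the core letters bound by PU.1, a transcription factor of myeloid cells. The Cybb region is chrX:16065016-16065315 on the minus strand, and the Nox4 region is chr1:150313639-150313938 on the plus strand.
Cybb: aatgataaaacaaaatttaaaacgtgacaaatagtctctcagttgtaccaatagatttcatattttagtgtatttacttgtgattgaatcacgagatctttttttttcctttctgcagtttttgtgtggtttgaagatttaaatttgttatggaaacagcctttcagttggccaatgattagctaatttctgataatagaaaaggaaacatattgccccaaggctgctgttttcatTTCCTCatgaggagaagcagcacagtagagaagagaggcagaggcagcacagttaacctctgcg
Nox4: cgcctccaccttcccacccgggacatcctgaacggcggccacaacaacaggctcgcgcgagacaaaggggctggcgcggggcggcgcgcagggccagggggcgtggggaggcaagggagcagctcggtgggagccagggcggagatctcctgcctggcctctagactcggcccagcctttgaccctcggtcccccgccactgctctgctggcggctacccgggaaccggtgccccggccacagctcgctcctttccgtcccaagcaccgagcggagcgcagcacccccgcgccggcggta
The Cybb window held 1 match, on the reverse strand and starting 14 bases before the annotated start, and the Nox4 window held 0. Over all 33469 promoter windows searched, 27.6% held at least 1 match, so a single match is common. The Cybb window was poor in G and C (35.7%) with 3 CpG dinucleotides, and the Nox4 window was rich (73%) with 31, where the median over all windows was 51.7% and 7. Windows were also found for Cyba (61% G and C, 0 matches) and Ncf1 (59.7%, 0 matches), which sit between the 2 catalytic genes in base composition. These are descriptions of letters in a window, and binding was not measured.

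Cybb encodes gp91phox, the electron-carrying subunit of the phagocyte oxidase. Its expression was 2425, 2465, 2923 and 4792 CPM in BAPN rats 1 to 4 and 2322, 3312, 2008 and 846.9 CPM in Vehicle rats 1 to 4. The highest value was in the male BAPN rat and the lowest in the male Vehicle 4, while the 3 female BAPN rats lay within the range of the 2 female Vehicle rats. The means were 3151 ± 1117 CPM in BAPN and 2122 ± 1016 CPM in Vehicle (SD, n = 4 each), a log2 fold change of 0.57 with a standard error of 0.431. This difference did not pass the test (edgeR FDR 0.318, DESeq2 FDR 0.259), and an exact two-sided permutation test over the rats gave p = 0.229. The log2 fold change was 0.29 without BAPN 4, 0.31 without Vehicle 4 and 0.87 without Vehicle 2. Among females alone (3 BAPN, 2 Vehicle) it turned to -0.11. The male minus female difference of the treatment effect was 1.86 on the log2 scale (edgeR FDR 0.303) and rests on a single male BAPN rat.

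Cyba encodes p22phox, the partner that stabilizes both gp91phox and Nox4 in the membrane. It was 278.1, 220.3, 353.3 and 396.8 CPM in BAPN rats 1 to 4 and 188.7, 302.6, 228.4 and 127.4 CPM in Vehicle rats 1 to 4. Vehicle 2 exceeded BAPN 1 and BAPN 2, Vehicle 3 exceeded BAPN 2, and the remaining Vehicle rats lay below every BAPN rat. The means of 312.1 ± 78.4 and 211.8 ± 73.42 CPM (SD, n = 4 each) differed by 0.56 on the log2 scale (standard error 0.287, edgeR FDR 0.172, exact permutation p = 0.143). Without Vehicle 4 the log2 fold change was 0.38 (edgeR FDR 0.306), and in females alone it was 0.21. Although its product serves both oxidases, the profile of Cyba over the 8 rats was nearer to that of Cybb (0.292) than to that of Nox4 (0.902), as the root-mean-square difference of log2 CPM after each gene was centred on its mean.

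Among the cytosolic subunits, Ncf1 encodes p47phox, the organizer whose phosphorylation starts the assembly of the oxidase. Ncf1 was 153.3, 117.9, 183.9 and 217.6 CPM in BAPN rats 1 to 4 against 111.4, 149.2, 110.5 and 61.58 CPM in Vehicle rats 1 to 4. Only Vehicle 2 reached into the BAPN range, where it exceeded BAPN 2. The log2 fold change was 0.64 with a standard error of 0.284 (edgeR FDR 0.122, exact permutation p = 0.0571). It was 0.44 without Vehicle 4 (edgeR FDR 0.197) and 0.22 in females alone. Ncf4 encodes p40phox, which binds phosphatidylinositol 3-phosphate and supports the oxidase on phagosomes. Its values were 135.1, 104.5, 151.2 and 116.2 CPM in the BAPN rats against 76.08, 124.8, 85.44 and 50.59 CPM in Vehicle. Vehicle 2 again exceeded part of the BAPN rats, BAPN 2 and BAPN 4. The Ncf4 difference of 0.59 on the log2 scale (standard error 0.256) had an edgeR FDR of 0.119 and an exact permutation p of 0.0857. Without Vehicle 2 it was 0.84 and passed the threshold (edgeR FDR 0.0272), and without Vehicle 4 it was 0.41 (FDR 0.195). Among females alone the Ncf4 difference was 0.375.

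Rac2 encodes the hematopoietic Rac GTPase that completes the active phagocyte complex. Its expression was 192.5, 174.9, 247.9 and 243.5 CPM in BAPN rats 1 to 4 and 110.1, 184.5, 156.9 and 90.34 CPM in Vehicle rats 1 to 4. The groups overlapped by a single pair, Vehicle 2 above BAPN 2. The means were 214.7 ± 36.58 and 135.4 ± 42.98 CPM (SD, n = 4 each), a log2 fold change of 0.67 with a standard error of 0.244. It missed the threshold in edgeR (FDR 0.0728, exact permutation p = 0.0571) and passed it in DESeq2 (FDR 0.031). In edgeR it passed without Vehicle 2 (0.85, FDR 0.032) but not without Vehicle 4 (0.51, FDR 0.13). The log2 fold change of Rac2 in females alone was 0.48. The widely expressed relative Rac1 was 487.1 ± 34.6 CPM in BAPN and 515.9 ± 61.6 CPM in Vehicle (log2 fold change -0.08, edgeR FDR 0.685). Rac1 and Rac2 are similar in coding sequence, and how reads shared by both were counted is not given in the sources used here.

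Nox4 was 25.14, 27.47, 19.42 and 18.62 CPM in BAPN rats 1 to 4 and 37.55, 31.68, 40.28 and 44.48 CPM in Vehicle rats 1 to 4, from 641 to 1393 reads per library. The groups did not overlap, a pattern that 11.9% of all tested genes showed in this direction and 12.7% in the other. The means were 22.66 ± 4.326 and 38.5 ± 5.363 CPM (SD, n = 4 each), and the log2 fold change was -0.76 with a standard error of 0.164 (edgeR FDR 0.0199, DESeq2 FDR 0.000521). The exact permutation p was 0.0286, the smallest that 70 arrangements of 4 against 4 rats can give. Without BAPN 3 (FDR 0.0545) or without Vehicle 1 (FDR 0.0546) Nox4 no longer passed in edgeR, while its log2 fold change stayed between -0.88 and -0.69 with any 1 rat left out (-0.69 without Vehicle 4, FDR 0.044). In females alone it was -0.53 (FDR 0.167). The lowest and the highest of the 8 values were both in male rats.

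**Figure D1:**
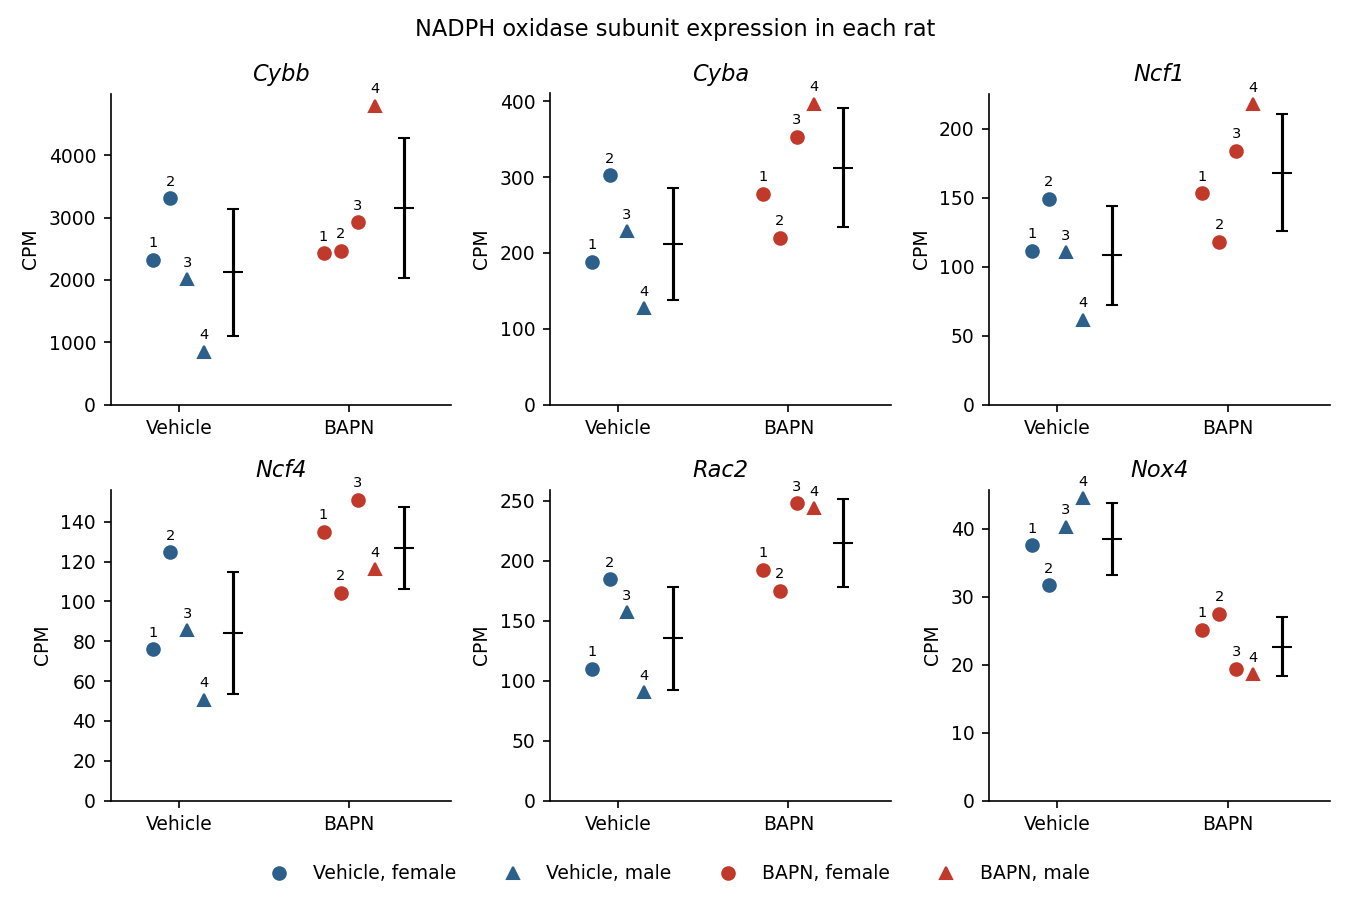
Expression of the 6 NADPH oxidase subunits in each rat, as TMM-scaled CPM on linear axes that start at 0. Circles are female and triangles male rats, small digits are replicate numbers, and the bars beside the points give mean ± SD of 4 rats. Vehicle 2 stands highest and Vehicle 4 lowest among Vehicle rats for the 5 phagocyte subunits, and the order is inverted for Nox4, for which all BAPN rats (18.62 to 27.47 CPM) lie below all Vehicle rats (31.68 to 44.48 CPM).

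The spread between rats differed among the members. Within Vehicle, the highest rat exceeded the lowest by 3.91-fold for Cybb, by 2.04- to 2.47-fold for the other phagocyte subunits and by 1.4-fold for Nox4. Within BAPN these ranges were 1.98-fold for Cybb, 1.42- to 1.84-fold for Cyba, Ncf1, Ncf4 and Rac2, and 1.47-fold for Nox4. The fold differences between group means were smaller than the Vehicle range for the 5 phagocyte subunits and also smaller than the BAPN range for Cybb, Cyba and Ncf1. Those of Ncf4 (1.5) and Rac2 (1.59) exceeded their BAPN range, and that of Nox4 (1.7) exceeded both.

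**Figure D2:**
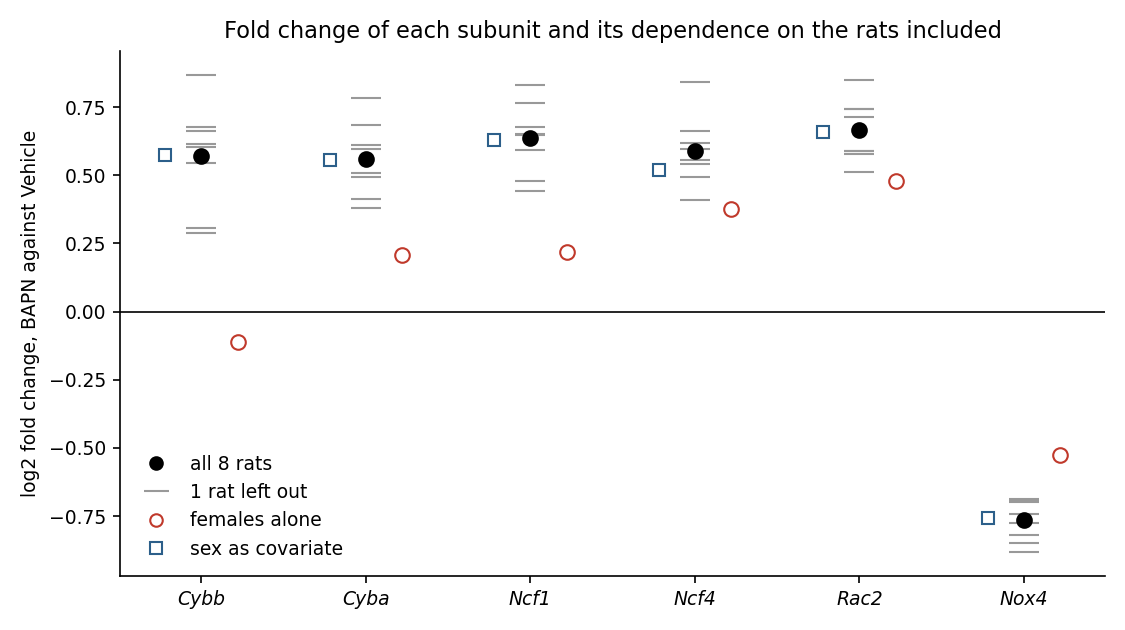
Log2 fold change of each subunit, BAPN against Vehicle, with all 8 rats (filled circles), with 1 rat left out (grey dashes), with sex as a covariate (squares) and in females alone (open circles). The grey dashes stay above 0 for the 5 phagocyte subunits and below 0 for Nox4 (-0.88 to -0.69), and the value in females alone lies nearer to 0 for every subunit and below it for Cybb (-0.11).

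Phagocyte subunits and Nox4 were then set against each other within each rat, which removes the scaling of the library. The log2 ratio of Cybb to Nox4 was 6.59, 6.48, 7.23 and 8.003 in BAPN rats 1 to 4 and 5.95, 6.71, 5.64 and 4.25 in Vehicle rats 1 to 4. Vehicle 2 lay above BAPN 1 and BAPN 2, and the group means differed by 1.44, a 2.72-fold shift of the ratio. The same difference was 1.36 for Cyba, 1.44 for Ncf1 and 1.42 for Ncf4, again with Vehicle 2 inside the BAPN range. For Rac2 the ratio to Nox4 was 2.93, 2.67, 3.67 and 3.71 in BAPN against 1.55, 2.54, 1.96 and 1.02 in Vehicle, so that the groups did not overlap, with a mean difference of 1.48. Nox4, the denominator, did not overlap between the groups itself, so these differences include the Nox4 difference already given. These ratios are given as descriptions with no test. In females alone all 5 differences were smaller, at 0.44 for Cybb, 0.76 for Cyba, 0.75 for Ncf1, 0.94 for Ncf4 and 1.05 for Rac2.

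**Figure D3:**
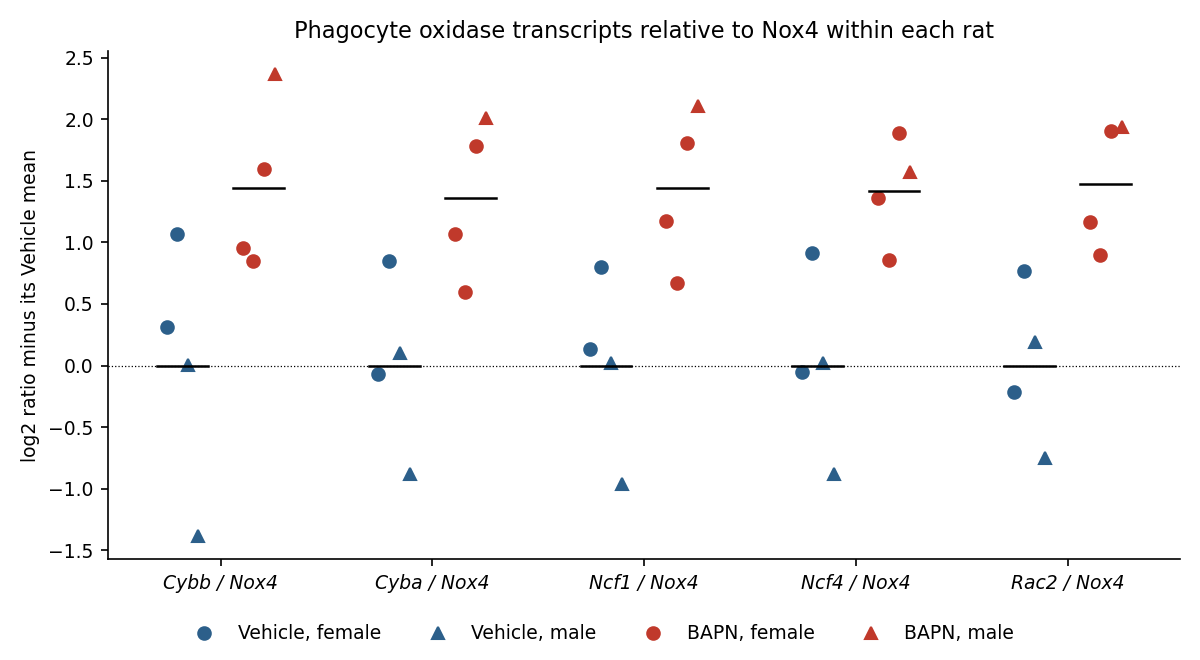
Log2 ratio of each phagocyte subunit to Nox4 within each rat, after the Vehicle mean of that ratio was subtracted. Points are rats and horizontal lines are group means. The BAPN means lie 1.36 to 1.48 above the Vehicle means, and Vehicle 2 is the only Vehicle rat that reaches into the BAPN range, for every ratio except that of Rac2.

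Because a vein holds many cell types, markers of each were measured beside the members, and in bulk RNA fewer cells of a type and less RNA per cell cannot be told apart. Summed macrophage markers were 34670 to 49760 CPM in BAPN and 8319 to 30240 CPM in Vehicle, with 8319 in Vehicle 4. Lyz2, which encodes lysozyme, made up most of these sums except in Vehicle 4, and without it (a sum chosen after seeing the data) they were 8547 to 14790 CPM in BAPN and 4457 to 10760 CPM in Vehicle, so that the groups overlapped. Of 16 tested macrophage markers 15 had a positive log2 fold change (median 0.55) and 1, Aif1, was called higher. Among all 11682 tested genes, 6028 had a positive log2 fold change and 7.5% were called higher. Lyz2 (log2 fold change 1.28, edgeR FDR 0.0722) and Gpnmb (0.55, FDR 0.393) had the most reads, and Marco was at 0 counts in all rats. With 1 rat left out, Lyz2 ranged from 0.98 to 1.549 and Gpnmb from 0.186 to 0.793. Pan-leukocyte markers summed to 3608 to 5398 CPM in BAPN and 1905 to 4152 CPM in Vehicle, and 9 of 9 had a positive log2 fold change (median 0.47), of which Cd53 and Ptpn6 were called. Cd53 kept its call only without Vehicle 2 or Vehicle 4 among the fits with 1 rat left out. Without Vehicle 1 neither list held a call, and without Vehicle 2 the macrophage list held 4. Both lists also held 0 calls in females alone and with the replicate numbers as a block. The pan-leukocyte median was 0.288 without Vehicle 4, 0.298 without BAPN 4 and 0.167 in females alone, where the macrophage median was 0.377. Ptprc, which encodes CD45, had a log2 fold change of 0.45 (edgeR FDR 0.189), and of 0.287 to 0.639 with 1 rat left out. Neutrophil markers were scarce, with 3 of 12 tested, 0 called in edgeR or DESeq2 with all 8 rats and a sum of 35.36 to 147.3 CPM in BAPN and 27.15 to 64.45 CPM in Vehicle. Csf3r (0.25, FDR 0.637) and Lcn2 (1.80, FDR 0.0918) led this list, and 1 of its markers, Lcn2, had an unadjusted p below 0.05. The Lcn2 value rested on BAPN 1, at 79.84 CPM against 5.573 to 18.98 CPM in the other BAPN rats, and was 0.68 without it (edgeR FDR 0.275), while without BAPN 4 it was 2.14 and called (FDR 0.047).

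Set against these markers within each rat, the differences between the groups were smaller than the expression differences themselves with all 8 rats. The log2 ratio to Ptprc differed between BAPN and Vehicle by 0.20 for Cybb, 0.12 for Cyba, 0.20 for Ncf1, 0.18 for Ncf4 and 0.23 for Rac2, and the groups overlapped for each. Against the mean of the macrophage markers the differences were 0.03 (Cyba) to 0.15 (Rac2). With 1 rat left out, these ran from -0.16 to 0.288 for Cybb, -0.134 to 0.165 for Cyba and -0.067 to 0.244 for Ncf1. For Ncf4 they ran from -0.013 to 0.169 and for Rac2 from 0.039 to 0.284. The differences against Ptprc then ran from -0.032 to 0.221 for Cyba and 0.061 to 0.301 for Ncf1. Those of Ncf4 ran from 0.006 to 0.35 and those of Rac2 from 0.078 to 0.304. In females alone Cybb turned to -0.22 against Ptprc and -0.44 against the macrophage markers, while Rac2 was at 0.39 and 0.16, and without Vehicle 4 Cybb to Ptprc was -0.02. For Rac2 to Ptprc, for example, the group means were -1.16 ± 0.316 and -1.40 ± 0.153 (SD, n = 4 each). The part of leukocyte content in the differences of the phagocyte subunits was not tested.

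Marker lists of the vessel wall cells had negative medians. Over all tested genes the median was 0.02, and 9.25% were called lower. Smooth muscle markers summed to 1832 to 4766 CPM in BAPN and 3785 to 6906 CPM in Vehicle, all 10 had a negative log2 fold change (median -1.25) and 7 were called lower. Those with the most reads, Tagln (-0.64, edgeR FDR 0.217) and Acta2 (-0.75, FDR 0.26), were not. With 1 rat left out, Tagln ranged from -1.079 to -0.421 and was called in 1 of 8 fits. Acta2 then ranged from -1.277 to -0.438 and was called in 0. Fibroblast markers had a median of -0.65 with 3 of 10 called lower, Col6a1 at -0.66 (edgeR FDR 0.114) and Dcn at -0.30 (FDR 0.312) being those with the most reads. Pericyte markers had a median of -0.88 with 4 of 7 called lower, including Notch3 (-1.90, edgeR FDR 0.0089) but not Pdgfrb (-0.74, FDR 0.0711). Endothelial markers had a median of -0.68 with 3 of 10 called lower, and Eng (-0.49, edgeR FDR 0.17) and Tie1 (-0.32, FDR 0.198) had the most reads. Within each rat, the log2 ratio of Nox4 to the fibroblast markers differed by -0.21, that to the endothelial markers by 0.02 and that to the smooth muscle markers by 0.54, and the groups overlapped in each. In females alone the ratio to the fibroblast markers differed by -0.02. With 1 rat left out, 3 to 9 smooth muscle markers were called (3 without BAPN 3, BAPN 4 or Vehicle 3), and 1 to 5 endothelial markers (1 without BAPN 3, BAPN 4 or Vehicle 1, 5 without Vehicle 2). In females alone 0 smooth muscle, 0 endothelial, 1 fibroblast and 1 pericyte marker were called. Smooth muscle calls numbered 3 with sex as a covariate and 4 with the replicate numbers as a block. The part of cell content in the Nox4 difference was not tested.

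Further lists marked lymphocytes and surrounding tissue. Of 8 T cell markers 7 had a positive log2 fold change (median 1.17), and 2 were called higher (Cd2 and Cd8a). The share called higher over all tested genes was 7.5%. The T cell calls fell to 1 without BAPN 1, 2 or 3 or Vehicle 4, and to 0 in females alone. Lck was at 0.85 (edgeR FDR 0.0964). Cd4 was at -0.07 (edgeR FDR 0.811), with 284.9 to 404.4 CPM in BAPN and 267.5 to 454.2 CPM in Vehicle. Cd2 was at 13.92 to 22.65 CPM in BAPN and 4.756 to 9.144 CPM in Vehicle. Whether the Cd4 reads came from T cells was not tested. Of 2 tested B cell markers, Cd79b was called higher (2.55, edgeR FDR 0.0458) and Cd22 was not (-0.03, FDR 0.931), and the call was kept only without BAPN 4 or Vehicle 3 among the fits with 1 rat left out. Of 5 tested adipocyte markers 4 had a negative log2 fold change (median -1.43) and 1, Plin1, was called lower (-2.13, edgeR FDR 0.0443). Lipe was at -0.90 (edgeR FDR 0.0635) and Fabp4, with the most reads, at 0.70 (FDR 0.269). Fabp4 was highest in BAPN 4 (2904 CPM) and lowest in Vehicle 4 (412.8 CPM), as Cybb was. Plin1 was 4.905 to 10.91 CPM in BAPN and 4.538 to 61.28 CPM in Vehicle. Whether the Fabp4 reads came from adipocytes was not tested. The adipocyte list held no call without BAPN 2, 3 or 4 or without Vehicle 1, 2 or 3, 2 calls in females alone and 4 in DESeq2 or with sex as a covariate. Skeletal muscle markers Acta1 (-2.50, edgeR FDR 0.0843) and Tnnt3 (0.09, FDR 0.83) were both uncalled in edgeR, and DESeq2 called Acta1 (FDR 0.0441).

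The profiles over the 8 rats put the phagocyte subunits beside the pan-leukocyte markers and Nox4 beside wall cells. The root-mean-square difference from the pan-leukocyte mean profile was 0.127 for Cyba, 0.129 for Rac2, 0.156 for Ncf1, 0.178 for Ncf4 and 0.341 for Cybb. Other leukocyte lists were farther, at 0.212 (Ncf4) to 0.482 (Cybb) for macrophage and 0.835 (Ncf4) to 1.188 (Cybb) for neutrophil markers. All 5 subunits lay farther from the neutrophil than from the fibroblast profile (0.785 to 0.932). The neutrophil profile was the mean of only 3 markers, among them Lcn2 with its high value in BAPN 1, and the fibroblast profile that of 10. For Nox4 the root-mean-square difference was 0.817 from the pan-leukocyte profile but 0.169 from the pericyte, 0.195 from the fibroblast, 0.22 from the endothelial and 0.399 from the smooth muscle profile. Among the members, Cyba and Ncf1 were the closest pair (0.096), and Nox4 differed from the other 5 by 0.881 to 1.048. All these profiles come from the same 8 libraries and share the difference between the groups, so the distances are descriptions.

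**Figure D4:**
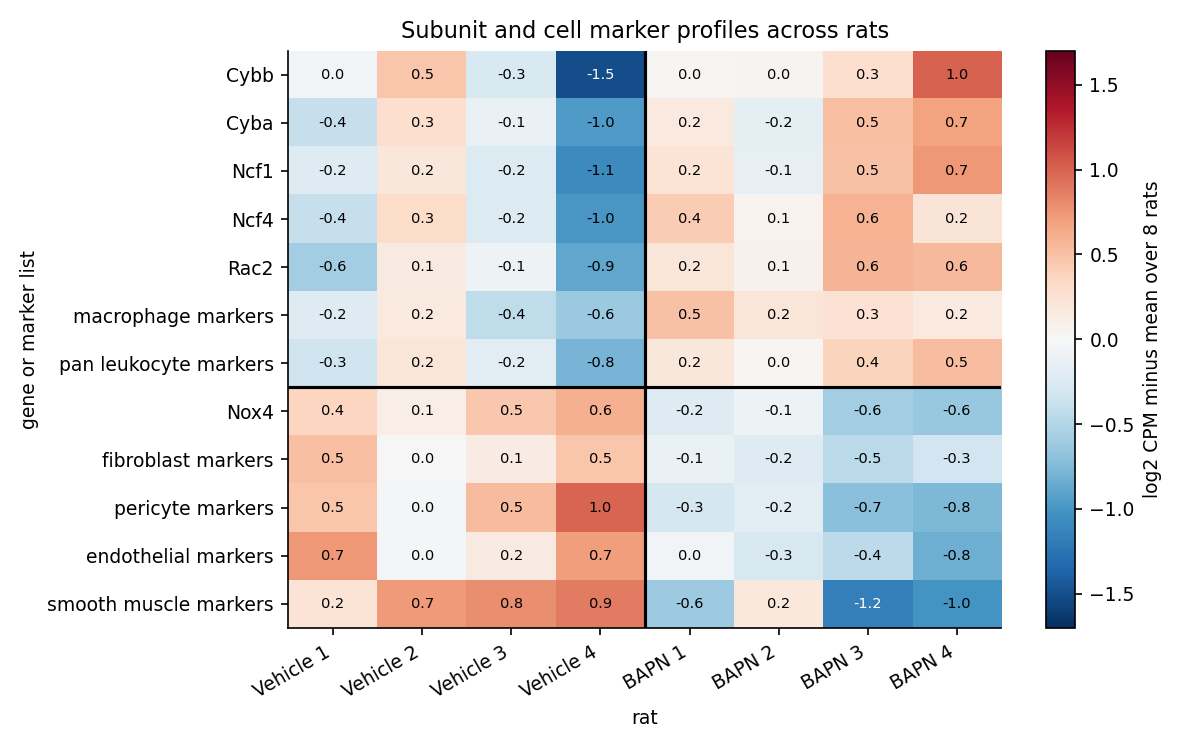
Profiles of the subunits and of the mean of each marker list over the 8 rats, as log2 CPM minus the mean over all rats (red above, blue below). The phagocyte subunits and the macrophage and pan-leukocyte markers are lowest in Vehicle 4 (Cybb at -1.502), while Nox4 and the wall cell markers are above their mean or near it in all Vehicle rats.

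The tested genes nearest to Cybb by this distance were Fam20c (0.089), Rab7b (0.089), Ndufaf7 (0.106), Sowahc (0.11) and Alcam (0.112). Their log2 fold changes lay between 0.50 and 0.70, and like Cybb none passed the test in edgeR. Nearest to Nox4 were Bcl9 (0.084), Kctd17 (0.089), Cybrd1 (0.091), Pou6f1 (0.092) and Tmem184b (0.097), with log2 fold changes between -0.82 and -0.72.

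Of the other genes of the oxidase family, 15 were in the files and 8 had enough counts to be tested. Of these 8, 1 was called lower and 0 higher (median log2 fold change -0.34), against 9.25% and 7.5% of all tested genes. The called gene was Sh3pxd2a, which encodes TKS5, an adaptor related to p47phox that organizes Nox-dependent podosomes. Sh3pxd2a was 22.84, 23.41, 9.041 and 13.17 CPM in BAPN rats 1 to 4 and 45.51, 24.27, 42.34 and 92.58 CPM in Vehicle rats 1 to 4. The groups did not overlap, but Vehicle 2 lay just above BAPN 2, and Vehicle 4 was far above the rest. Its log2 fold change of -1.58 (edgeR FDR 0.0366) kept its call without BAPN 2 or Vehicle 2, lost it without any other single rat, and lost it with sex as a covariate. Its relative Sh3pxd2b, which encodes TKS4, had a log2 fold change of -0.84 (edgeR FDR 0.063).

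Genes that assist the catalytic subunits did not pass the test in edgeR with all 8 rats. Cybc1, which encodes the chaperone EROS needed for gp91phox protein, was 100.7, 86.82, 99.94 and 113.4 CPM in BAPN rats 1 to 4 and 72.99, 89.56, 77.65 and 64.78 CPM in Vehicle rats 1 to 4. Vehicle 2 exceeded BAPN 2, and the log2 fold change of 0.39 missed the threshold in edgeR (FDR 0.0601) and passed in DESeq2 (FDR 0.034). Poldip2, which encodes a p22phox partner known to raise Nox4 activity, was 48.29, 43.25, 44.95 and 51.2 CPM in BAPN against 57.59, 54.86, 57.87 and 56.71 CPM in Vehicle. All BAPN rats lay below all Vehicle rats, in the same direction as Nox4, but the change was small (-0.27, edgeR FDR 0.0677, DESeq2 FDR 0.0178). In edgeR Poldip2 passed narrowly with thinned counts (FDR 0.0492) and with library totals alone (FDR 0.0495). Nrros, a negative regulator of the phagocyte oxidase that promotes degradation of gp91phox, had a log2 fold change of 0.17 (edgeR FDR 0.661). Without Vehicle 4 this was -0.03. The calcium-activated oxidase Duox1 (-0.71, edgeR FDR 0.191) and its maturation factor Duoxa1 (-0.40, FDR 0.309) were not called. Nox1, the oxidase of colon epithelium that is also known in smooth muscle, was 0.6313 to 5.135 CPM, and Rac3, Noxa1, Noxo1, Duox2 and Duoxa2 were also under the count minimum. Nox3, the oxidase of the inner ear, had 0 counts in every library.

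Upstream of the phagocyte oxidase, a list of 37 tested genes held receptors, kinases, exchange factors and transcription factors. Of these, 29 had a positive log2 fold change (median 0.33), 6 were called higher and 2 lower. Over all tested genes, 7.5% were called higher and 9.25% lower, and 6028 of 11682 had a positive log2 fold change. In females alone the list median was 0.09. Itgb2, the CD18 chain of the phagocyte integrins, had a log2 fold change of 0.66 (edgeR FDR 0.236), Arhgdia, which keeps Rac in the cytosol, 0.16 (FDR 0.52), and Fcer1g, the signaling chain of activating Fc receptors, 0.79 (FDR 0.0506). The kinase gene Lyn was called higher, at 323.5, 296.6, 256.1 and 319.6 CPM in BAPN rats 1 to 4 and 186.3, 255.6, 198.6 and 149.4 CPM in Vehicle rats 1 to 4 (log2 fold change 0.60, edgeR FDR 0.0436). Vehicle 2 all but reached BAPN 3. The other calls, named after their values were seen, were Vav1 (0.55), Rap1a (0.48), Fcgr1a (0.80), Fcgr3a (1.06) and Irf1 (0.57) higher and Vav2 (-0.49) and Cebpb (-0.56) lower. Vav1 is the hematopoietic and Vav2 the widely expressed member of a family of Rac exchange factors. All 8 calls had an FDR between 0.03 and 0.0489, and the count of calls in the list fell to 0 without Vehicle 1 or Vehicle 3, to 1 or 2 without Vehicle 4 or any BAPN rat, and rose to 11 without Vehicle 2.

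Downstream, a list held genes that remove superoxide and peroxide and other genes linked to their handling, with 20 tested. Of these 20, 4 were called higher and 2 lower (median log2 fold change 0.25), against 7.5% and 9.25% of all tested genes. Prdx1, a cytosolic peroxiredoxin, was 267.1, 272.1, 333.6 and 374.6 CPM in BAPN rats 1 to 4 and 159.3, 180.5, 152 and 127.2 CPM in Vehicle rats 1 to 4. Every BAPN rat was well above every Vehicle rat (log2 fold change 1.01, edgeR FDR 0.00965), and the call held with any 1 rat left out but not in females alone (FDR 0.0864). Txn1, which encodes thioredoxin, was 223.8, 196.6, 305.6 and 294.2 CPM in BAPN and 103.3, 140.6, 85.61 and 55.03 CPM in Vehicle. Again the groups did not overlap (1.41, edgeR FDR 0.0161), and of the fits with 1 rat left out only the one without Vehicle 1 lost the call (FDR 0.0504). The Txn1 call was also lost in females alone (FDR 0.0956). Sod2, the mitochondrial superoxide dismutase, was higher (0.91, edgeR FDR 0.0241), a call lost without BAPN 3, Vehicle 1 or Vehicle 3. The mitochondrial peroxiredoxin Prdx3 was also higher (0.46, edgeR FDR 0.0204), a call lost without Vehicle 1. In contrast, 2 enzymes that act outside the cell were lower. Sod3, the extracellular superoxide dismutase, was 162.7, 181.5, 106.9 and 93.24 CPM in BAPN and 322.7, 209.4, 266.5 and 342.8 CPM in Vehicle (-1.07, edgeR FDR 0.0237). Gpx3, the plasma glutathione peroxidase, was 778.1, 716.8, 743.8 and 819.6 CPM in BAPN and 1280, 932.5, 1175 and 1584 CPM in Vehicle (-0.70, edgeR FDR 0.0318). All BAPN rats lay below all Vehicle rats for both genes. The Sod3 call was lost without BAPN 3, BAPN 4 or Vehicle 1, and the Gpx3 call held only without Vehicle 2 among the fits with 1 rat left out. Gpx1 (0.55, edgeR FDR 0.225) and Prdx5 (1.096, FDR 0.055) did not pass. In all, the list held 1 call without Vehicle 1 and 3 without BAPN 3.

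A list of other superoxide sources, which also held the disulfide isomerase genes P4hb and Pdia4, had 7 tested genes. Of these 7, 1 was called lower and 0 higher (median log2 fold change -0.03), against 9.25% and 7.5% of all tested genes. Nos3, the endothelial nitric oxide synthase, which can also release superoxide, was 26.9, 24.63, 19.95 and 14.32 CPM in BAPN rats 1 to 4 and 60.91, 31.09, 32.83 and 53.84 CPM in Vehicle rats 1 to 4. All BAPN rats were below all Vehicle rats (-1.06, edgeR FDR 0.0305), but Nos3 was no longer called without BAPN 3, BAPN 4, Vehicle 1 or Vehicle 4. Xdh, which encodes xanthine oxidoreductase, had a log2 fold change of 0.55 (edgeR FDR 0.0921). The disulfide isomerase genes P4hb (0.27, edgeR FDR 0.178) and Pdia4 (-0.03, FDR 0.917), whose P4hb product is known to bind NADPH oxidases, were not called in edgeR. DESeq2 called P4hb (FDR 0.0311) and Xdh (FDR 0.0418) higher, and the monoamine oxidase gene Maob lower (FDR 0.0299), which edgeR did not call (FDR 0.0802).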

How the data were processed

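RNA of AVF veins from 8 rats was sequenced after ribosomal RNA depletion with a stranded kit. The deposited files hold the raw count of reads per gene for 32623 Ensembl genes, without normalization. Submitters' processing notes name bcl2fastq 2.17, Trim Galore and STAR, and the genome build, counter and strand setting are not given in the sources used here. Groups, sex and replicate numbers came from the sample labels, and each sample was taken as a separate rat. In the paper's methods raw counts were normalized with a DESeq plug-in and genes with a base mean under 100 were left out. The same minimum was used here and kept 11682 genes, which held 99.5% to 99.66% of each library's counts. Replicates of a group differed by more than counting noise (chi-square per degree of freedom 68.63 to 321.3 over 12 pairs).

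Counts were tested with edgeR 4.0.16 under R 4.3.3 (quasi-likelihood test on TMM-scaled counts, with a single treatment term), with Benjamini-Hochberg FDR over all tested genes and a threshold of 0.05. Standard errors came from limma 3.58.1 (voom), and DESeq2 1.42.0 was an alternative. Permutation tests were exact and two-sided over 70 arrangements of log2 CPM (prior count 2). The steps were tested on simulated counts. The members, the gene lists and the tests were chosen with earlier results of these data known, so list counts are descriptions. Genes named were the members, the other oxidase family genes, in each other oxidase list the 3 genes of highest mean log2 CPM and the called genes among its 10 highest, Ptprc or the 2 highest genes of each marker list, and the 5 nearest profiles to Cybb and Nox4, and other called genes were named after their values were seen. Some genes of these lists are not reported here. Promoter windows were found for 4 of the 6 members. Transcript lengths were not used, so CPM values rank genes by reads and not by transcript level. Alternatives were DESeq2, other size factors and filters, sex as a covariate, females alone, a replicate block, thinned counts and leaving out each rat.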

Additional observations from a re-analysis of the deposited data

How the results depend on the processing

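All 5 phagocyte subunits had a positive and Nox4 a negative log2 fold change under each scaling, filter and tool, with thinned counts, with sex as a covariate and with any 1 rat left out. The exception was females alone, where Cybb turned to -0.113 and Nox4, at -0.527, lost its call. With sex as a covariate Nox4 had an edgeR FDR of 0.0468. The replicate numbers did not pair the rats (correlations of same-numbered deviations 0.094, -0.265, 0.269 and -0.14). With the replicate block Nox4 was -0.774 (FDR 0.071), 0 members and 556 genes were called, and calls in the lists of other oxidase genes, activation, peroxide handling and other sources numbered 0, 0, 2 and 0. The block also ended the calls of Txn1 (FDR 0.0591) and of both T cell markers. DESeq2 called 2 members, Rac2 at 0.653, and 3202 genes, with 4, 12, 10 and 4 calls in those lists. In females alone 0 members and 89 genes were called, with 0 calls in each of the 4 lists, and 930 genes were called with sex as a covariate, with 0 other oxidase and 1 activation gene. Library totals alone gave 2 and 4 calls in the first 2 lists, thinning 2 in the first (Poldip2 beside Sh3pxd2a in both fits), and no filter 5 in the second. With 1 rat left out, the calls numbered 397 to 2215 over all genes (1957 with all 8 rats, 397 without Vehicle 1), 0 to 3 among members, 0 to 2 among other oxidase genes, 0 to 11 in activation, 1 to 8 in handling and 0 to 1 among other sources, and the log2 fold changes ranged from 0.409 to 0.842 for Ncf4, 0.513 to 0.85 for Rac2 and -0.881 to -0.688 for Nox4. In females alone the differences in log2 ratio were 0.441 for Cybb to Nox4, 0.748 for Ncf1 to Nox4, -0.215 for Cybb to Ptprc and -0.018 for Nox4 to fibroblast markers. The cause of these changes was not tested.

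Of 1105 values for 65 other named genes, 884 kept their direction and side of the threshold, 177 lost a call, 24 gained one and 20 changed sign, the last all of genes not called with all rats. Among the named genes that edgeR did not call, DESeq2 also called Sh3pxd2b, Fcer1g, Prdx5, Lyz2, Lck, Col6a1, Pdgfrb and Lipe, in the same direction. The sign changes in females alone were Nrros (-0.051), Arhgdia (-0.021), Pdia4 (0.163), Gpnmb (-0.289), Fabp4 (-0.074), Fam20c (-0.144), Rab7b (-0.043), Sowahc (-0.031) and Alcam (-0.266). With 1 rat left out, log2 fold changes ranged from -0.031 to 0.354 for Nrros, -0.136 to 0.109 for Pdia4, -0.053 to 0.488 for Csf3r, -0.183 to 0.081 for Cd4, -0.21 to 0.162 for Cd22 and -0.071 to 0.272 for Tnnt3. No group of 4 rats held a value far enough from the others to pass Dixon's test, out of 28 checked, and among 78 genes of the members and lists no sex difference of the treatment effect passed adjustment, with a single male BAPN rat behind that comparison. With 4 rats a group, the 95% interval (limma-voom) of the log2 fold change ran from -0.299 to 1.639 for Cybb. It ran from -1.141 to -0.403 for Nox4, from -0.049 to 1.242 for Cyba and from 0.034 to 1.311 for Ncf1. For Ncf4 it ran from 0.077 to 1.228 and for Rac2 from 0.161 to 1.257. These intervals are not adjusted for the number of genes and are centred on the voom estimates (0.67 for Cybb and -0.772 for Nox4).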
